A study of Mus musculus with 4 samples.

Results

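The genes described here encode the collagens, the small leucine-rich proteoglycans and fibronectin-linked proteins that fibroblasts deposit, and the proteoglycans and tenascins of the neural matrix. They were matched by gene symbol, with earlier results of these data known: every collagen chain gene of the pattern Col, number, a, number, and in addition Dcn, Lum, Ogn, Bgn, Fn1, Vcan, Bcan, Ncan, Acan, Tnc, Tnr, Mfap4, Fbln1 and Fbln2. All 58 genes matched by that rule, 44 collagens and 14 others, were found among the 19938 genes with a singly named probe set. Total RNA had been measured on 1 Affymetrix array for each of 4 brain regions of ICR mouse embryos at embryonic day 17.5. As the labels state it, the cerebellum array held tissue pooled from 13 mice, the olfactory bulb array from 14, the pontine nucleus array from 15 and the superior colliculus array from 16. These pool sizes rise by 1 from sample to sample in the order of deposit, and no other source was at hand to check them. ICR is an outbred stock, and no treatment or genetic change is named for any of the 4 groups. Pooling averages over animals, and with 1 array per region no spread, SD or test was available, so every value below sets one pool beside another. Precision is limited throughout by having so few arrays.

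The matrix of the brain differs from that of most organs. Fibrillar collagens and small leucine-rich proteoglycans such as decorin are made mainly by fibroblasts of the meninges, the membranes around the brain, and type IV collagen lies in the basement membranes of blood vessels and of the pial surface. Between neurons and glia the matrix is instead built of lecticans, chondroitin sulfate proteoglycans that bind hyaluronan, held together by tenascins. The labels do not say whether the meninges were stripped from the dissected tissue.

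Values are log2 probe set levels, so that 1 unit is a 2-fold difference. Levels are compared between regions within a gene and not between genes, since each probe set has its own response. The size rule called a gene higher in one region if that array exceeded each of the remaining 3 by 1 log2 unit or more, and lower if it lay below each by as much. Calls were made for genes whose highest level exceeded 8.56, the median of all gene levels, which held for 10908 genes and for 29 of the 58 members. The 4 array medians lay between 8.07 and 8.13. In each region all 5 marker genes listed for it were called higher there. Examples were Atoh1 and En2 for the cerebellum and Hoxa2 and Hoxb3 for the pontine nucleus. These markers were listed with earlier results of these data known, so their calls are no independent check of the dissection. As a scale for weak signals, 205 vomeronasal receptor and beta defensin genes had 95% of their levels at or below 7.32, and their highest and lowest arrays differed by up to 0.58 at the 95th percentile.

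Of the 58 members, 4 were called. Decorin (Dcn) was higher in the olfactory bulb and the microfibril protein gene Mfap4 higher in the cerebellum, while tenascin-R (Tnr) was lower in the cerebellum and versican (Vcan) lower in the superior colliculus. In bulk tissue, fewer cells of a type and less RNA per cell cannot be told apart. Of the 44 collagens only 18 exceeded the level of 8.56 and could be called, and none of these was called in any region. Among the members above the level of 8.56, 1 of 29 was higher in the cerebellum, where 0.605% of all genes above it were, and 1 of 29 lower, against 0.156%. In the olfactory bulb 1 was higher, against 0.972% of all genes above that level, and 0 were lower, against 0.431%. In the pontine nucleus 0 members were higher or lower, against 0.798% and 0.981%. In the superior colliculus 0 were higher and 1 was lower, against 0.715% and 0.165%. Counts of 0 or 1 gene do not distinguish the members, or the collagens among them, from the other genes of the array.

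A wider measure, with no level floor, is the difference between the highest and the lowest of the 4 arrays. It reached 1 log2 unit for 8 members (13.8%), against 9.33% of all 19938 genes. These were Dcn, Mfap4, Tnr, Vcan, Fbln2 and Lum among the non-collagens, and Col11a1 and Col12a1 among the collagens. The members just inside this limit were Lum at 1.03 and Col11a1 at 1.04, and those just outside it were Col25a1 at 0.99 and Acan at 0.94. The median of this difference was 0.34 over the collagens and 0.88 over the 14 other members, beside 0.32 over all genes. For 34 of the 44 collagens it did not exceed 0.58, the value of the receptor and defensin genes given above.

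**Figure D1:**
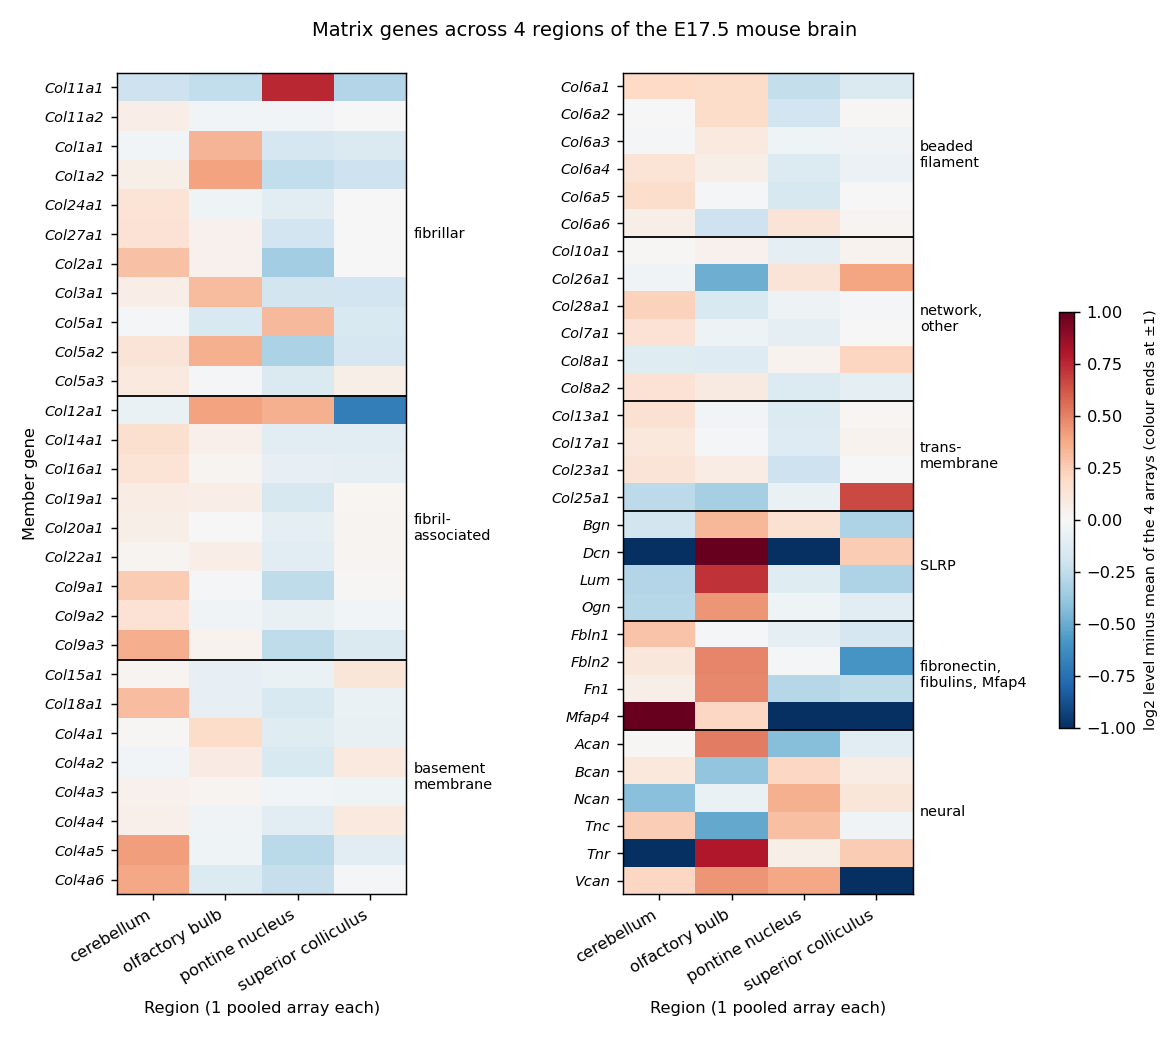
Each row is 1 of the 58 members, grouped by role (SLRP, small leucine-rich proteoglycans), and each column is the single pooled array of a region. Colour gives the log2 level minus the gene's mean over the 4 arrays, red above and blue below, with the colour scale ending at 1 unit; most collagen rows are pale, and the strongest colours belong to Dcn, Mfap4, Tnr and Vcan.

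The small leucine-rich proteoglycans bind collagen fibrils and regulate their spacing, and all 4 were highest in the olfactory bulb. Dcn (probe set 10365974), which encodes decorin, read 7.08 in cerebellum, 10.59 in bulb, 7.28 in pontine nucleus and 8.65 in colliculus. The bulb stood 1.94 log2 units, or 3.84-fold, above the superior colliculus. The cerebellum and pontine levels lie within the range of the receptor and defensin genes, so that they have no order between them and no exact difference from the other arrays. The bulb was thus high and the colliculus intermediate, with the other arrays near background.

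Lumican (Lum), the neighbour of Dcn on chromosome 10, read 5.02, 6.04, 5.19 and 5.01 in the order cerebellum, olfactory bulb, pontine nucleus and superior colliculus. Osteoglycin (Ogn) read 5.91, 6.64, 6.15 and 6.08 in that order. Both were highest in the bulb, by 0.85 and 0.49, but all their levels lay below 7.32, within the range of the receptor and defensin genes, and neither reached the level floor. Biglycan (Bgn), the close relative of decorin, read 9.95, 10.47, 10.29 and 9.83. For Bgn the bulb lay only 0.18 above the pontine nucleus, and the whole difference between the arrays was 0.64. Decorin was therefore the only one of the 4 with a difference of more than 1 log2 unit above every other array.

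Fibronectin and the fibulins link cells and elastic fibres to the collagen network. Fn1, which encodes fibronectin, read 10.05 in cerebellum, 10.47 in bulb, 9.71 in pontine nucleus and 9.74 in colliculus. The bulb was highest, by 0.42. Fbln2 (fibulin 2) read 9.21, 9.59, 9.09 and 8.51, highest in the bulb by 0.38 and lowest in the superior colliculus by 0.58. Fbln1 (fibulin 1) instead was highest in the cerebellum, at 9.61, against 9.31, 9.23 and 9.16 elsewhere.

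Mfap4 (probe set 10376778) encodes a microfibril-associated glycoprotein of elastic fibres. It read 11.75 in cerebellum, 9.75 in bulb, 8.20 in pontine nucleus and 8.47 in colliculus. The cerebellum stood 2.0 log2 units (4-fold) above the bulb, and the bulb 1.28 above the colliculus. The whole difference between the arrays was 3.55. The regional order was not that of Dcn, since the cerebellum exceeded the bulb for Mfap4 and the bulb exceeded the cerebellum for Dcn.

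**Figure D2:**
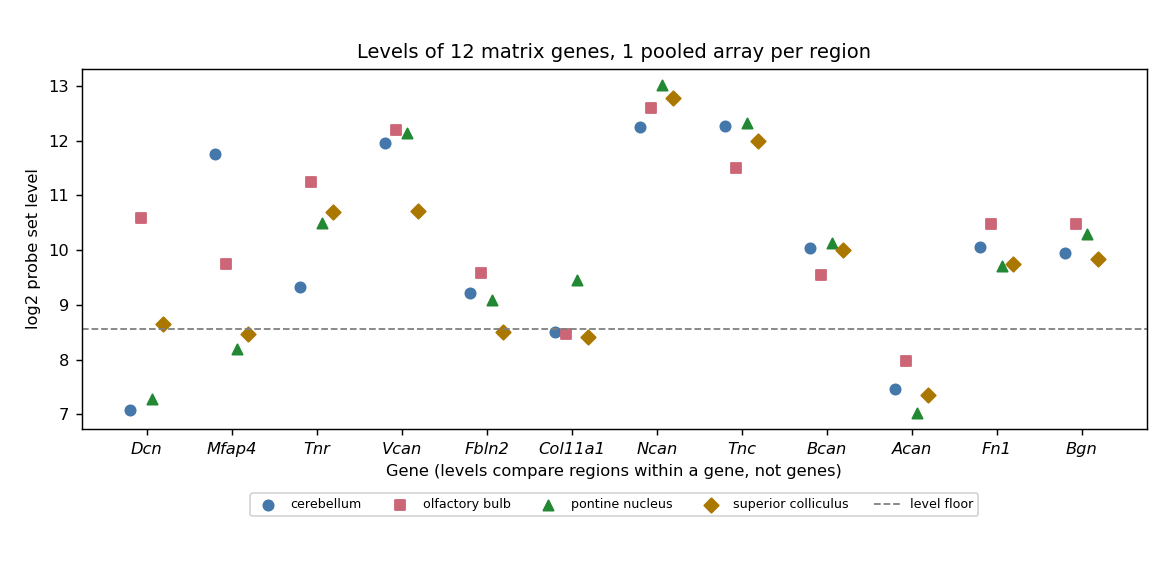
Points give the log2 probe set level of 12 matrix genes on the single pooled array of each region, with the level floor of 8.56 as a dashed line. Dcn is set apart by the olfactory bulb, Mfap4 by the cerebellum, Tnr by a low cerebellum and Vcan by a low superior colliculus, while the 4 points of Bcan, Bgn, Fn1, Ncan and Tnc lie within 0.81 log2 units.

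The fibrillar collagens form the banded fibrils of connective tissue. Col1a1 and Col1a2, whose products assemble into type I collagen, followed the same order. Col1a1 read 8.70 in cerebellum, 9.07 in bulb, 8.56 in pontine nucleus and 8.58 in colliculus. Col1a2 read 8.89, 9.23, 8.58 and 8.62 in that order. For both the bulb was highest, by 0.37 and 0.34, and the cerebellum second. Col3a1, the type III collagen gene, read 8.43, 8.68, 8.18 and 8.17, and Col5a2, a type V chain gene next to it on chromosome 1, read 8.14, 8.36, 7.69 and 7.84. These 4 collagens, picked after their values were seen, were highest in the bulb and second in the cerebellum. The pontine nucleus and the colliculus had no fixed order between them. The differences between their highest and lowest arrays were 0.51 to 0.67. For Col1a1 and Col3a1 the difference was 0.51, within the 0.58 of the receptor and defensin genes.

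Other fibrillar collagens had other orders. Col11a1, a minor chain that nucleates fibrils, read 8.50 in cerebellum, 8.46 in bulb, 9.46 in pontine nucleus and 8.42 in colliculus. The pontine nucleus stood 0.96 log2 units (1.95-fold) above the cerebellum, just short of the size rule, and the other 3 arrays lay between 8.42 and 8.50. Col5a1 was also highest there, at 8.93 against 8.45 to 8.58. Col2a1, the cartilage collagen gene, read 9.19, 8.94, 8.55 and 8.90, highest in the cerebellum and lowest in the pontine nucleus. Over the 11 fibrillar genes the highest array was cerebellum for 5, bulb for 4, pontine nucleus for 2 and colliculus for 0.

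Promoter sequences from RefSeq (build GRCm38.p6) were at hand for 45 of the 58 members, among them 3 that were highest in the bulb (Col1a2, Col3a1 and Bgn), Col11a1, and the neural matrix genes Tnr and Ncan. They are shown here to set genes of the fibroblast matrix beside genes of the neural matrix. Each stretch is 150 bases long, runs 5′ to 3′ on the gene's strand, and ends just before the outermost annotated start of the gene, so that no transcribed base is included. Capitals mark a CCAAT box (CCAAT, or ATTGG on the other strand), a GC box (GGGCGG or CCGCCC) or a TATA box (TATAAA or TTTATA). The positions are chr6:4505468-4505617, plus strand, for Col1a2, chr1:45311388-45311537, plus strand, for Col3a1, chrX:73483451-73483600, plus strand, for Bgn, chr3:114030329-114030478, plus strand, for Col11a1, chr1:159523579-159523728, plus strand, for Tnr, and chr8:70120864-70121013, minus strand, for Ncan.
Col1a2: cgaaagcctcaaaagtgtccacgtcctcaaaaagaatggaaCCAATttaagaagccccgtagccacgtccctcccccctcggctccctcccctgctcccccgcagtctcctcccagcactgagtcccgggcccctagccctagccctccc
Col3a1: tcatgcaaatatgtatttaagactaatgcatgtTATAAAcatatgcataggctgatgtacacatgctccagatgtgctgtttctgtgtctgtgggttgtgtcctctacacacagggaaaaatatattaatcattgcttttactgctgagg
Bgn: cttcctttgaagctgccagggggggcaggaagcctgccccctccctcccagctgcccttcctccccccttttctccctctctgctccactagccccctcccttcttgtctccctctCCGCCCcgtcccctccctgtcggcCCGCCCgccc
Col11a1: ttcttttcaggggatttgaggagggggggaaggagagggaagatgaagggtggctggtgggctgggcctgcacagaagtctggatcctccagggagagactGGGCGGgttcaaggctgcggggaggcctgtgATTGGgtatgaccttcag
Tnr: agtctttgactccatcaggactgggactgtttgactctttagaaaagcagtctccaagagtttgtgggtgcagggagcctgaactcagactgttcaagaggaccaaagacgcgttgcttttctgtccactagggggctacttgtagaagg
Ncan: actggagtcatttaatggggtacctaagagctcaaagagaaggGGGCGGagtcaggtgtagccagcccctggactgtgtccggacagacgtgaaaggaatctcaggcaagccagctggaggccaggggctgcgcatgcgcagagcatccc
The stretches of Col1a2 and Col11a1 each hold a CCAAT box, those of Bgn, Col11a1 and Ncan GC boxes, and that of Col3a1 a TATA box, while the stretch of Tnr holds none of these letters. Over the full windows, from 250 bases before to 50 after the start, a CCAAT box was found in 16 of the 45 members (35.6%), against 37.4% of all 32851 promoters of the table. A GC box was found in 30 of 45 (66.7%), against 35.7%, and a TATA box in 8 of 45 (17.8%), against 13.6%. A member was counted if any of its promoters held the motif, whereas the table was counted promoter by promoter. The shares thus have unlike units, which favours members with several promoters. Matches that overlap were each counted, since ATTGG and GGGCGG, for example, can share bases. A match of this kind is a description of the sequence only.

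The fibril-associated collagens, which decorate fibrils, had small differences with 1 exception. Col12a1 read 7.97 in cerebellum, 8.44 in bulb, 8.39 in pontine nucleus and 7.34 in colliculus, where it was lowest by 0.63. Its highest level stayed below the level floor. Col9a3, a type IX chain gene, read 9.53, 9.20, 8.91 and 9.02 and was highest in the cerebellum by 0.33. The differences between the highest and lowest arrays of the remaining 7 genes of this group lay between 0.15 (Col20a1) and 0.51 (Col9a1).

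Type IV collagen forms the sheet of basement membranes, and its 6 genes lie in head-to-head pairs. The abundant vascular pair was nearly even. Col4a1 read 8.99 in cerebellum, 9.16 in bulb, 8.85 in pontine nucleus and 8.90 in colliculus, and Col4a2 read 8.74, 8.85, 8.61 and 8.86. The pair on the X chromosome was highest in the cerebellum. Col4a5 read 8.19 there against 7.50 to 7.73, and Col4a6 read 7.98 against 7.36 to 7.57, both below the level floor on every array. The genes of the endostatin-bearing collagens gave 8.79 in the cerebellum against 8.33 to 8.42 for Col18a1, and 8.06 to 8.26 for Col15a1.

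The type VI genes, whose products form beaded filaments, differed by at most 0.44 between arrays, and Col6a6 read 8.70, 8.44, 8.77 and 8.67. Col6a5 and Col6a6 were the only members with several probe sets, 2 each, and their second probe sets read 6.83 to 6.91 and 6.73 to 7.37. Of the network-forming and other collagens, Col26a1 read 9.85 in cerebellum, 9.40 in bulb, 10.02 in pontine nucleus and 10.28 in colliculus, lowest in the bulb by 0.45. Of the transmembrane collagens, Col25a1, a gene expressed by neurons, read 8.19, 8.12, 8.38 and 9.11. It was highest in the superior colliculus, by 0.73. Col23a1 read 8.67, 8.61, 8.33 and 8.54.

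Across the collagens as a family a shallow order was visible: 25 of 44 were highest in cerebellum, 10 in bulb, 6 in colliculus and 3 in pontine nucleus. The pontine nucleus was lowest for 31, with 3 collagens tied for lowest and counted for the region named first. Among the receptor and defensin genes, which have little signal, the cerebellum was highest for 42.4%, against 30.6% of all genes. These genes were lowest in the bulb for 35.6% and in the pontine nucleus for 33.2%, and all genes for 21.6% and 33.6%. The part of such leanings in the collagen counts was not tested. With quantile normalization of the 4 columns the cerebellum was highest for 21 collagens and the pontine nucleus lowest for 35.

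The lecticans and tenascins of the neural matrix, secreted by neurons, radial glia and oligodendrocyte precursors, did not share one order of regions. Ncan, which encodes neurocan, read 12.25 in cerebellum, 12.60 in bulb, 13.02 in pontine nucleus and 12.79 in colliculus. Bcan, which encodes brevican, read 10.04, 9.54, 10.14 and 10.01, and was lowest in the bulb by 0.47. Tnc, which encodes tenascin-C, a glycoprotein of radial glia and astrocytes, read 12.27, 11.51, 12.32 and 11.99, and was also lowest in the bulb, by 0.48. Acan, which encodes aggrecan, read 7.47, 7.97, 7.03 and 7.35 and did not reach the level floor.

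Vcan (probe set 10410931), which encodes versican, the lectican that repels migrating cells and axons, read 11.96 in cerebellum, 12.20 in bulb, 12.14 in pontine nucleus and 10.72 in colliculus. The other 3 arrays lay between 11.96 and 12.20, and the colliculus was lower than the nearest of them by 1.24 log2 units (2.36-fold). Tnr (probe set 10350951), which encodes tenascin-R, a crosslinker of lecticans made by oligodendrocyte lineage cells and some neurons, read 9.33, 11.24, 10.50 and 10.70. The cerebellum lay 1.17 below the pontine nucleus (2.25-fold), and the bulb 0.54 above the colliculus. The bulb was thus the highest array for Tnr, Vcan and Acan and the lowest for Tnc and Bcan.

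To set the meningeal against the neural matrix, 17 members listed as fibroblast matrix (Col1a1, Col1a2, Col3a1, Col5a1, Col5a2, Col6a1, Col6a2, Col6a3, Col12a1, Col14a1, Dcn, Lum, Ogn, Bgn, Fn1, Fbln1 and Fbln2) were described beside the 6 lecticans and tenascins. The list was chosen with earlier results known, and which cells expressed these genes was not tested. Mfap4, highest in the cerebellum at 11.75 against 9.75 in the bulb, was in neither group. Of the 17, 13 (76.5%) were highest in the olfactory bulb, against 25.1% of all genes and 18.5% of the receptor and defensin genes. The exceptions were Col5a1, highest in the pontine nucleus, and Col6a1, Col14a1 and Fbln1, highest in the cerebellum. Among those highest in the bulb, Lum and Ogn lay within the range of the receptor and defensin genes on every array. Col12a1, Col6a3, Col6a2 and Bgn led there by only 0.05, 0.12, 0.17 and 0.18, and of the genes called by the size rule only Dcn was among them. Each gene's level in a region was set against its average over the remaining 3, and the median of this difference was 0.46 in the bulb, -0.01 in cerebellum, -0.17 in pontine nucleus and -0.22 in colliculus. Over all genes these medians were 0.01, 0.02, -0.04 and -0.01. Without Dcn, 12 of 16 were highest in the bulb and the median there was 0.45. The small cerebellum median turned to 0.04 without Dcn and to 0.08 over the 9 members above the level floor.

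For the 6 neural matrix genes the median difference was 0.25 in bulb, 0.08 in cerebellum, 0.34 in pontine nucleus and 0.03 in colliculus. The bulb median turned to -0.09 when Acan, below the level floor, was left out. In the bulb the 6 values ran from -0.68 for Tnc to 1.06 for Tnr, and 3 lay above 0. Of the 17 meningeal genes 15 lay above 0 in the bulb, with differences from -0.20 to 2.92. In the pontine nucleus 5 of 6 neural genes and 3 of 17 meningeal genes lay above 0.

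**Figure D3:**
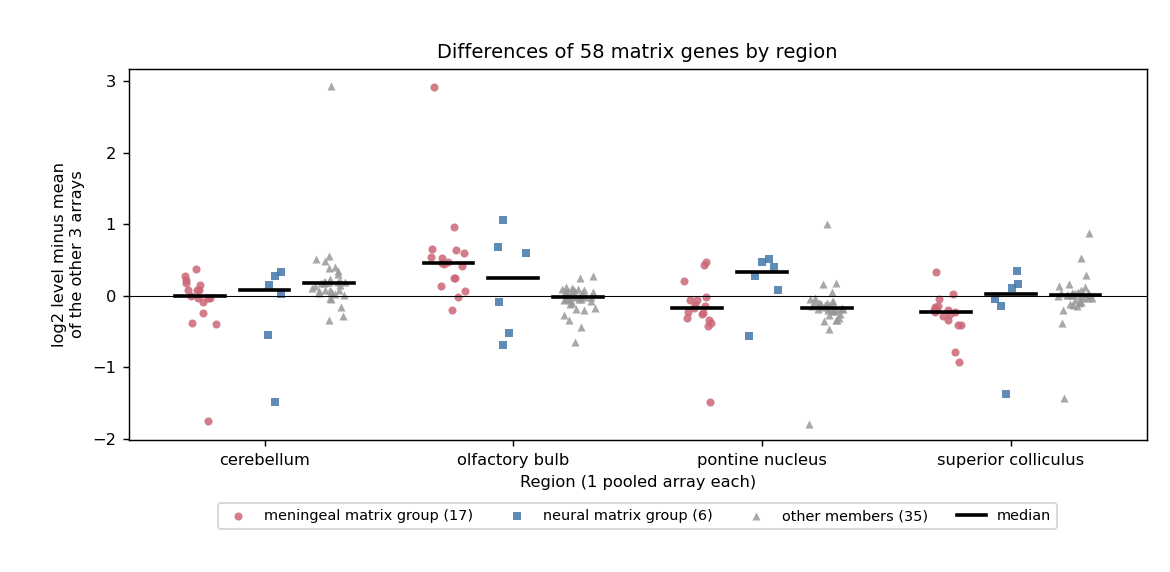
Each point is 1 member, placed at its log2 level minus the mean of the other 3 arrays, for the 17 meningeal matrix genes, the 6 neural matrix genes and the other 35 members, with a bar at the median of each set. The meningeal genes have a median of 0.46 in the olfactory bulb and of -0.01, -0.17 and -0.22 in cerebellum, pontine nucleus and colliculus, and the neural genes are spread on both sides of 0 in the bulb.

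Markers of the cells that could supply this matrix were read on the same arrays. Of 20 listed meningeal fibroblast genes 19 were measured, and 12 were highest in the olfactory bulb (1 of these tied with the superior colliculus), 4 in colliculus, 3 in cerebellum and 0 in pontine nucleus. Their median difference in the bulb was 0.42, beside 0.46 for the meningeal matrix members and 0.42 for the 3 measured blood genes. Their summed linear signal, which follows the brightest probe sets, was 6524 in cerebellum, 7723 in bulb, 4952 in pontine nucleus and 5796 in colliculus. None was called in any region, 13 of the 19 did not reach the level floor, and 2 lay at or below 7.32 on all 4 arrays. Slc6a13, a transporter gene of the meninges, read 7.76, 8.81, 7.27 and 7.90 in the order used above. Islr, with the widest difference of the list, read 9.75, 9.65, 7.46 and 8.27, so that cerebellum and bulb were nearly level. Slc22a8 was highest in the colliculus, at 9.70 against 9.61 in the bulb. Foxc1, a transcription factor gene of meningeal fibroblasts, stayed between 7.28 and 7.44 on all 4 arrays. The part of these cells in the levels of the matrix genes was not tested.

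Several other lists were also highest in the bulb. The ensheathing and Schwann glia list had a median difference of 1.17 there over 7 genes, with Frzb, Npy (a neuropeptide gene that neurons also express) and Erbb3 called higher, and the macrophage list a median of 0.24 over 8 genes, of which 6 were highest in the bulb. The summed linear signals of the glia and the macrophage list were 18446, 23081, 17906 and 17675, and 1905, 2149, 1756 and 1931, in the order cerebellum, bulb, pontine nucleus and colliculus. Such sums add probe sets of unlike response and follow the brightest. In the glia list that is Fabp7, at 13.93 to 14.03, which is also on the radial glia list, so the sum does not measure ensheathing or Schwann glia. The lists of blood vessel cells had bulb medians of 0.05 for 11 endothelial genes and 0.07 for 10 mural genes. The mural differences in the bulb ran from -0.59 for Notch3 to 1.27 for Vtn, which read 9.84, 11.19, 9.60 and 10.32. In the same order, the summed linear signal was 5464, 6210, 5976 and 6015 for the endothelial list. For the mural list it was 4808, 6360, 4386 and 5297. The 3 measured blood genes had a bulb median of 0.42. Of 10 cartilage and bone genes 8 did not reach the level floor, with a bulb median of 0.01. Among them Ucma was called higher in the cerebellum, at 10.20 against at most 8.91, and Sp7, a bone transcription factor gene, read 8.22 in the bulb against at most 6.98 without reaching the level floor.

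The marker lists of glia that make neural matrix had other medians, and no list of general neuron markers was read. The radial glia and astrocyte list was highest in the cerebellum for 7 of 9 genes, against 30.6% of all genes. Of the 7, Fabp7 led by only 0.03 and Gfap did not reach the level floor. The median of this list was 0.52 in the cerebellum and 0.08 in the bulb. The only gene of this list called was Aqp4, a water channel gene of astrocytes, which was higher in the pontine nucleus, at 10.68 against 9.09, 8.10 and 9.25. The oligodendrocyte precursor list was lowest in the bulb for 6 of 7 genes, with a median of -0.46, and reached 0.26 in the cerebellum, where Tnr was lowest. The part of these cells in the levels of the lecticans and tenascins was not tested.

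**Figure D4:**
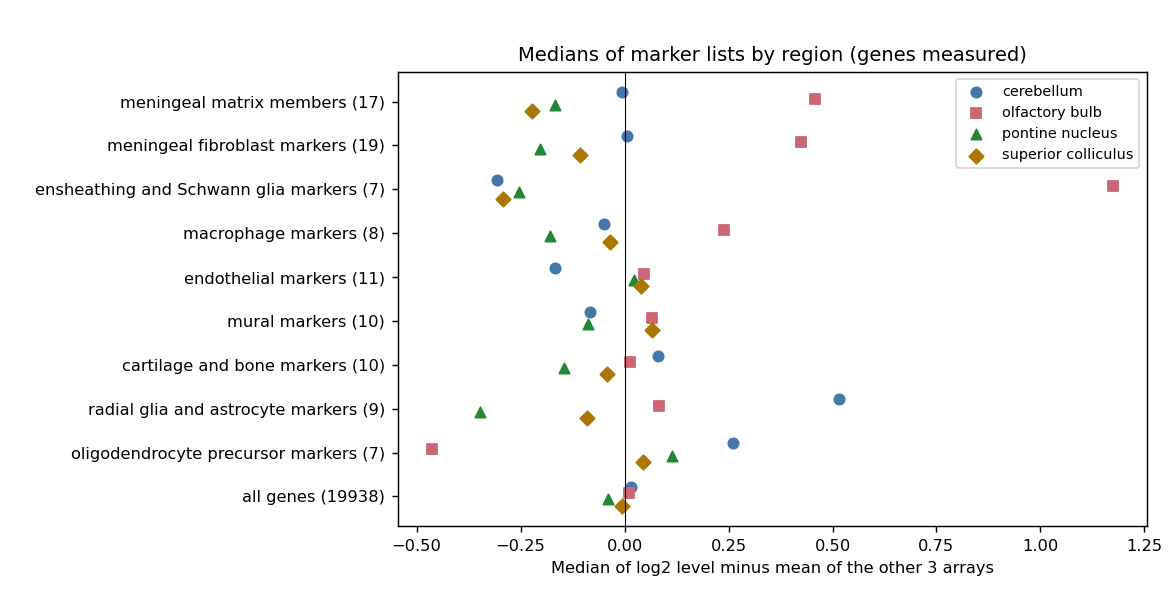
Points give the median log2 level minus the mean of the other 3 arrays over the genes of each list, by region, with the number of genes measured in brackets. The meningeal matrix members and the meningeal fibroblast markers have bulb medians above 0.4, and the ensheathing and Schwann glia list lies farther right at 1.17. The endothelial and mural lists stay within 0.17 of 0. The blood list, with a bulb median of 0.42 over 3 genes, is not drawn.

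Collagen chains need hydroxylases, a chaperone and cross-linking enzymes before they become fibrils. Of 25 listed genes of this machinery 22 were measured, of which 15 exceeded the level floor and 0 were called. Of all genes above the floor 0.156% to 0.981% were called per region and direction. With so few genes a count of 0 does not set the list apart. The median difference over the 22 was 0.12 in bulb, 0.14 in cerebellum, -0.30 in pontine nucleus and -0.02 in colliculus. The pontine nucleus was lowest for 15 of 22. Serpinh1, the collagen-specific chaperone gene, read 9.21 in cerebellum, 8.94 in bulb, 8.38 in pontine nucleus and 8.48 in colliculus. Loxl1, a cross-linking enzyme gene, read 9.31, 8.66, 8.05 and 8.19. P3h2, a prolyl hydroxylase gene, read 9.10, 7.95, 7.41 and 8.69. All of these examples were among the 10 of 22 genes highest in the cerebellum, while 6 were highest in the bulb. Of the latter, P4ha3 read 9.05, 9.30, 8.35 and 9.07.

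Of 15 listed laminin, nidogen and heparan sulfate proteoglycan genes of basement membranes 14 were measured, and 10 exceeded the level floor. In the cerebellum and in the bulb 1 each was called higher, against 0.605% and 0.972% of all genes above the floor. Nid1, which encodes the linker nidogen 1, was called higher in the cerebellum, at 12.16 against 10.18, 9.65 and 10.69. Lamb1, a laminin chain gene, was called higher in the bulb, at 10.15 against 9.03, 8.53 and 8.65. Lama4 and Nid2 were also highest in the bulb, at 9.16 and 9.12, by 0.66 and 0.67. Of the type IV collagen genes only Col4a1 and Col4a2 exceeded the level floor, and neither was called. Col4a1 and Col4a2 differed by no more than 0.31 between arrays, Col4a5 by 0.69 and Col4a6 by 0.62.

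The lecticans bind hyaluronan, whose synthases and link proteins were read in a list of 20 genes, all measured. Of the 20, 13 exceeded the level floor and 0 were called, against 0.156% to 0.981% of all genes above the floor per region and direction. Has2, a hyaluronan synthase gene, read 9.88 in cerebellum, 7.91 in bulb, 8.72 in pontine nucleus and 9.19 in colliculus, and Has3 read 8.70, 7.59, 7.32 and 8.11. The lectican-cleaving protease gene Adamts1 read 9.43, 8.59, 7.62 and 7.89, and Adamts9 read 9.01, 10.20, 8.44 and 9.46. Hapln1, the link protein gene, did not reach the level floor and read 6.90, 7.93, 6.79 and 7.10. Median differences over the list were -0.06, 0.06, -0.28 and 0.03 in that order of regions.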

How the data were processed

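The authors' deposited table held 1 log2 level per probe set and array, for 35556 probe sets. The log2 scale was inferred from the values, and the 4 columns were taken as scaled between arrays by the authors, since their medians lay close together. Affymetrix Expression Console is named in the submitters' processing notes, but version, algorithm and build were not given in the sources used here. RNA was extracted with Trizol and RNeasy columns and labelled by the Ambion and Affymetrix whole transcript kits, per the labels' protocols. Scaling between arrays can remove a difference in total RNA, and weak signals compress fold differences.

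Probe sets were named through the array's annotation table of 2016, and the 1621 with several symbols were not used. Where a gene had several probe sets, the one brightest on average was taken. All 58 members matched RefSeq by gene ID, with 0 changed symbols. No test was possible with single arrays. The members, lists and rules were chosen with earlier results of these data known. Members were named with all levels when their arrays differed by at least 1 log2 unit and the highest exceeded the level floor, when they belonged to the neural matrix group, or when they had the highest mean level of their group, which ranks probe sets and not amounts of RNA. The other members given with levels, among them Lum, Ogn, Col1a1, Col1a2, Col3a1, Col5a2, Col12a1, Col25a1 and the type IV genes, and the examples from other lists, were picked after their values were seen. Alternatives were other level floors, quantile normalization, averaging over a gene's probe sets and, added after seeing the data, the group without Dcn and every alternative for the counts of genes highest or lowest in a region. Python 3.11.15, NumPy 2.4.6, pandas 2.3.3 and Matplotlib 3.10.9 were used.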

Additional observations from a re-analysis of the deposited data

How the results depend on the processing

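The counts of members called higher or lower in each region were recomputed with no level floor, with the floor at the 75th percentile, with quantile normalization and with averages over a gene's probe sets, and the same members were called in all 32 cases. The 36 recomputed gaps of the 18 genes named by rule changed by at most 0.07 log2 units. Of 28 recomputed group medians 1 moved by more than 0.17, the SD of the receptor and defensin genes' differences. It was that of the neural matrix genes in the olfactory bulb, 0.25 over all 6 and -0.087 over the 5 above the level floor, where Acan is left out. Of the meningeal matrix members 13 of 17 were highest in the bulb, also with quantile normalization, and 7 of the 9 above the level floor, a smaller count because fewer genes were kept. The floor uses a gene's highest array, and Col3a1 passed it only in the bulb, so the count of 7 supports nothing about the bulb. No paired analysis was possible because each region has 1 array and the result comes from no test. Signal over background limits Lum, Ogn and the low Dcn levels, which lie within the range of the receptor and defensin genes.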

Other observations

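Receptors for the matrix were read as well. Of 22 integrin, discoidin receptor, dystroglycan and syndecan genes 14 exceeded the level floor, and 0 were called in any region. Of all genes above the floor 0.156% to 0.981% were called per region and direction, so a count of 0 does not set these genes apart. The median differences over the 22 were 0.08 in cerebellum, 0.06 in bulb, -0.09 in pontine nucleus and -0.03 in colliculus. Among genes picked for their differences, Sdc2, which encodes syndecan 2, read 8.93 in cerebellum, 9.04 in bulb, 8.08 in pontine nucleus and 9.73 in colliculus. Itga6, a laminin receptor gene, was highest in the pontine nucleus at 10.49, against 9.42 to 9.85. Itga3, another laminin receptor gene, was lowest in the bulb at 8.46, against 9.30 to 9.76.

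Most of the other small leucine-rich and elastic fibre genes were not highest in the bulb, unlike Dcn. Of 16 measured, 13 were highest in the cerebellum and 1 in the bulb, with 1 gene tied for highest, and 0 were called. Only 5 of the 16 exceeded the level floor. Another 6 lay within the range of the receptor and defensin genes on every array. The leads in the cerebellum were at most 0.29 log2 units, for Prelp and Efemp1. The cerebellum was also highest for 42.4% of the receptor and defensin genes and 30.6% of all genes. The part of such leanings in the count of 13 was not tested. Prelp, a small leucine-rich relative of Dcn, read 9.21 in cerebellum, 7.67 in bulb, 7.32 in pontine nucleus and 8.92 in colliculus. Kera and Epyc, further members of that family, read 5.65 to 5.81 and 6.16 to 6.38, within the range of the receptor and defensin genes. Of the 9 pairs of members that are neighbours on a chromosome, 5 were highest in the same region, among them Col3a1 with Col5a2, Dcn with Lum, and Col4a5 with Col4a6. These pairs overlap in Col6a5, which belongs to 2 of them.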
